A study of Mus musculus with 4 samples.

Results

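The matrix proteases and their inhibitors are the genes of 4 families on a whole-genome mouse array: the matrix metalloproteinases (Mmp), their tissue inhibitors (Timp), and the membrane-bound and secreted disintegrin metalloproteases (Adam and Adamts). Members were all non-control probes whose gene name in the array file starts with one of these symbols followed by a digit. That rule used no measured value and found 116 of 55681 probes, which stand for 78 genes. Of these, 67 genes were measured, among 29409 genes tested in all: 18 of 23 Mmp, 4 of 4 Timp, 26 of 32 Adam and 19 of 19 Adamts genes. A gene counted as measured if 2 or more of the 4 arrays showed a probe of it well above background. The other 11 were not well above background on enough arrays and have no fold change here: Mmp1a, Mmp7, Mmp10, Mmp20, Mmp21, Adam1b, Adam6a, Adam7, Adam24, Adam29 and Adam34.

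The arrays came from lumbar spinal cord of 4 male ICR mice, an outbred strain, aged 8 weeks, killed at day 10 after surgery. In the SNL group (spinal nerve ligation, a model of neuropathic pain) the L5 spinal nerve of 2 mice was tied tightly with silk. In the sham group the same nerve of 2 mice was exposed under the same anaesthesia and not tied. All mice were perfused with saline before the L4 and L5 segments were taken, although the source label names L5 only, and no source used here gives the side of the cord. Each mouse gave 1 array, so every error rests on 2 mice per group. The comparison asks which transcripts of the segment that receives the injured nerve differ from those of sham cord.

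Matrix metalloproteinases are zinc enzymes, secreted as inactive precursors or anchored in the membrane, that cut collagen, laminin, growth factors and cytokines. TIMPs block them by filling the catalytic site. ADAMs cut the outer part of membrane proteins such as tumour necrosis factor, Notch and growth factor precursors, and several ADAMs without a working catalytic site act as adhesion proteins. ADAMTS enzymes cut the proteoglycans of the matrix and trim collagen precursors. In the spinal cord, the gelatinases Mmp2 and Mmp9 and their inhibitors have long been studied after nerve injury.

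A level is the log2 of a probe's processed spot signal minus the 75th percentile of its array, so levels of different genes cannot be set against each other. Levels are given in the order sham 1, sham 2, SNL 1, SNL 2, and a change is SNL minus sham on the log2 scale with its SE (n = 2 mice per group). Between 74.9% and 82.1% of the spots of an array were well above background, with the lower shares on the SNL arrays, and 0 spots were saturated. All 11 genes of the neuron list, all 9 of the astrocyte list and all 9 of the oligodendrocyte list were measured, so no defining marker of cord was absent. All 10 genes of skeletal muscle and bone and all 11 of Schwann cells and dorsal root were measured too, so being measured does not tell these tissues apart. Genes of other tissues stood apart on single arrays. Genes of skeletal muscle and bone lay a median of 3.08 above their own 4-array mean on SNL 1, against -0.68, -0.17 and -1.88 on the other arrays. Genes of Schwann cells and dorsal root lay lowest on sham 2, at a median of -0.76 from their mean. Each group filled a slide row of its own on 1 slide, so the row and the group cannot be told apart.

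Among the 67 measured members, 0 passed limma's test at a Benjamini-Hochberg adjusted p under 0.05 in either direction. Over all genes 0.160% passed as higher and 0.0102% as lower. At an unadjusted p under 0.05, 7 members were higher in SNL (6.64% of all genes) and 6 were lower (5.44% of all genes). By fitted change, 4 members were at least 2-fold higher at that p, Adam8, Timp1, Mmp12 and Mmp3 (1.89% of all genes), and Mmp9 and Mmp1b were at least 2-fold lower (0.700% of all genes). Mmp1b and Adam25 were well above background in the sham mice alone, so these 2 entered through the group where they are high, and the 2-fold size of Mmp1b is not a measured one. Mmp12 and Mmp3 were also dim on some arrays. Among the 60 members with a probe well above background on all 4 arrays, 2 were at least 2-fold higher, Adam8 and Timp1, which is 3.33% against 1.85% of the 26853 such genes. Of these 60 members, only Mmp9 was at least 2-fold lower, 1.67% against 0.354%. At an unadjusted p under 0.05, 5 of the 60 were higher, 8.33% against 7.44%, and 5 were lower, 8.33% against 5.45%, both not far from the background. The median change was 0.028 over the members and 0.028 over all genes, and the median size of a change without its sign was 0.23 against 0.16. The groups did not overlap for 32 members, 47.8% against 45.8% of all genes, so that count is close to the background. For 45 members the larger difference between the 2 mice of a group exceeded the difference between the groups.

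**Figure D1:**
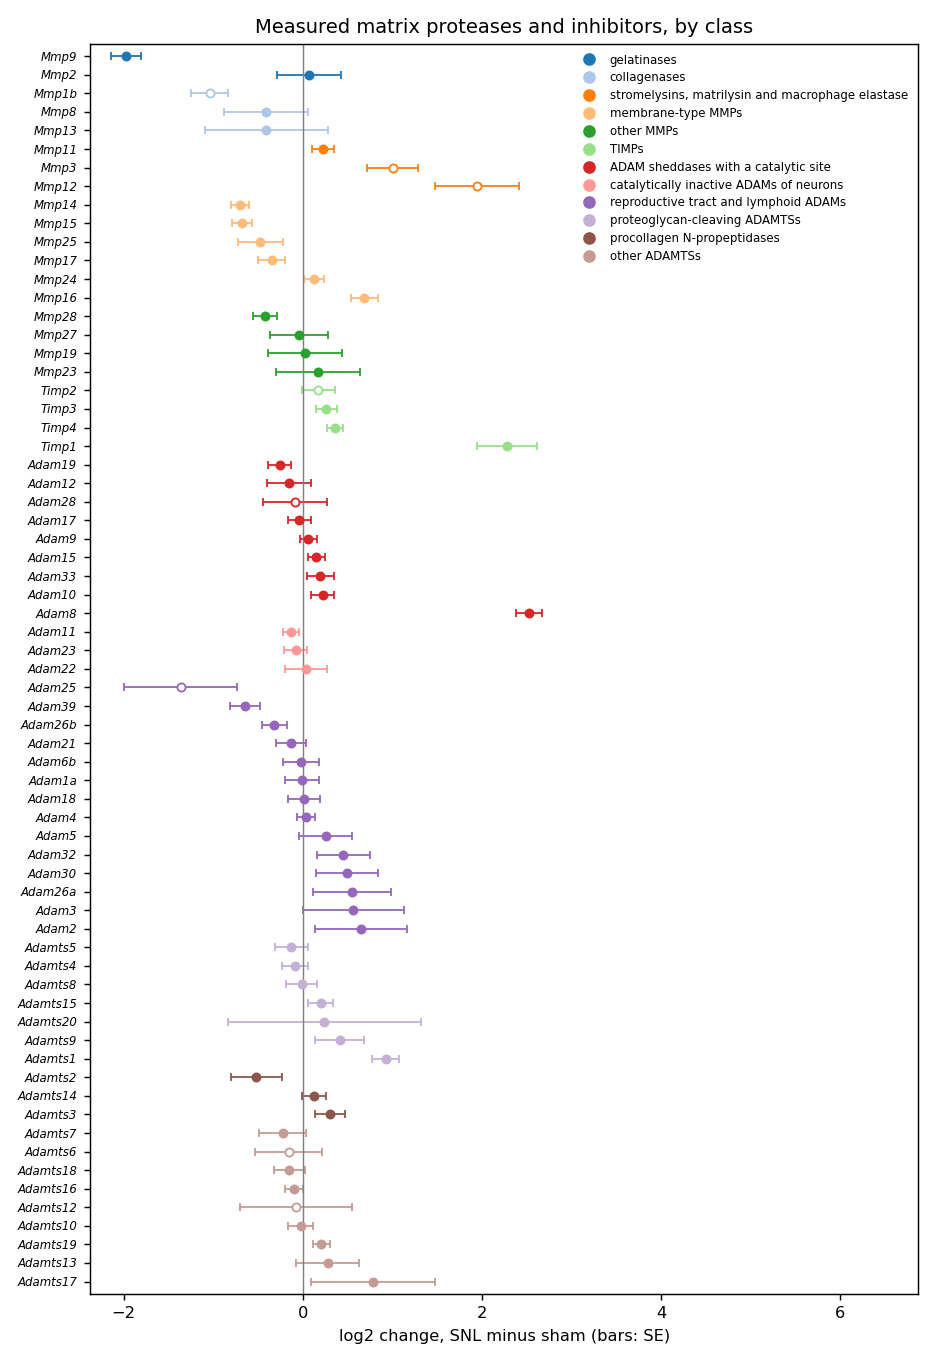
The log2 change (SNL minus sham, horizontal axis) of all 67 measured members, grouped and coloured by class, with bars for the SE from limma. Open points were well above background on fewer than 4 arrays or, for Timp2, had 1 spot left out. Most members lie near 0, and Adam8, Timp1, Mmp9 and Mmp12 lie farthest from it.

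Adam8 and Timp1 had the largest increases among the members, and the sequence before their start sites is shown so that both can be compared with the metalloproteinase promoters further on. The first stretch is the 250 bases before the start of Timp1, the second the 250 bases before the start of Adam8. Both are from RefSeq on build GRCm38.p6, Timp1 from chrX:20869916-20870165 on the plus strand and Adam8 from chr7:139992563-139992812 on the minus strand, and GC bases make up 54.4% and 52.8% of them. No letters are in capitals because none of the 3 motifs described next was found in them.
Timp1: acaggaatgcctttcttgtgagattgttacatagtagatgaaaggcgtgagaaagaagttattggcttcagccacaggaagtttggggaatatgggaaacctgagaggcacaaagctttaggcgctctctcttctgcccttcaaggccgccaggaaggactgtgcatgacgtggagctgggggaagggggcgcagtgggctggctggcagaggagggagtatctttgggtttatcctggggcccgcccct
Adam8: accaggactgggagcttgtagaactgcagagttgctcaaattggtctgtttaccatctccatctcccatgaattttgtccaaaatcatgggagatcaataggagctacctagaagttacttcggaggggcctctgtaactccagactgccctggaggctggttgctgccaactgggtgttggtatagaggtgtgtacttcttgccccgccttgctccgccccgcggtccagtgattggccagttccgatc

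The motifs were those of AP-1 (TGACTCA, which reads TGAGTCA on the other strand), CRE (TGACGTCA) and STAT factors (TTCNNNGAA), each searched on both strands of windows that run from 250 bases before a start to 50 after it. The AP-1 letters were in 5.20% of all 32851 windows, the CRE letters in 1.79% and the STAT letters in 8.30%. Of the 78 members, 48 had a window, with 53 member windows in all. AP-1 letters were found in 10 of these windows, of 10 genes, STAT letters in 4, of 3 genes, and CRE letters in 0. A motif of NF-kB was searched as well, and its matches are not reported here. A match describes the letters only and is not evidence of binding.

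Of the 10 members with AP-1 letters, 7 belong to the Mmp cluster of chromosome 9: Mmp1a, Mmp1b, Mmp3, Mmp7, Mmp10, Mmp12 and Mmp13. The 4 of these that were measured are given as 47 bases around the match, read 5′ to 3′ along the gene. They sit side by side in the genome and each carries the letters close to a start. Capitals mark the AP-1 letters. They begin 44 bases before a start in Mmp12 (chr9:7347310-7347356, plus strand), 46 in Mmp3 (chr9:7445756-7445802, plus), 93 in Mmp1b (chr9:7388093-7388139, minus) and 35 in Mmp13 (chr9:7272459-7272505, plus), all RefSeq on GRCm38.p6. Another start of Mmp12, preceded by chr9:7344147-7344396, has no AP-1 letters in its window.
Mmp12: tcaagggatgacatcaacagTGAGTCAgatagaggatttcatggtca
Mmp3: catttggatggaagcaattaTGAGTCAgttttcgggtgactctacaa
Mmp1b: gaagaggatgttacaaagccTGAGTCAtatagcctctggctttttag
Mmp13: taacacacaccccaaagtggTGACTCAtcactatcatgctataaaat

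TIMPs, the inhibitors, were measured for all 4 members and all 4 lay above 0, with a median change of 0.31, although Timp2 turned below 0 in 3 alternatives. Timp1, an inhibitor that injured and inflamed tissue makes, had levels of -2.96, -3.81, -1.00 and -1.20. Both SNL mice lay above both sham mice, and the sham mice were farther apart than the SNL mice. SNL was 4.87-fold higher, a change of 2.28 ± 0.33 (limma adjusted p = 0.170), and it lay between 1.86 and 2.71 when each mouse was left out in turn. The single Timp1 probe lies at chrX:20451802-20451861 in build mm9, the build of the array file, and its exon was not looked up here.

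Timp4, an inhibitor found mainly in brain, heart and muscle, read 2.01 and 2.00 in the sham mice and 2.39 and 2.35 in the SNL mice. The 2 mice of each group were almost equal and the groups did not overlap. SNL was 1.29-fold higher, a change of 0.36 ± 0.088 (limma adjusted p = 0.297). Timp3, which stays bound to the matrix and also inhibits Adam17, read 2.53, 2.49, 2.87 and 2.67, a change of 0.26 ± 0.12 (limma adjusted p = 0.492). Timp2, which inhibits MMPs and also helps Mmp14 activate Mmp2, read 2.47, 2.73 and 2.78 on sham 1, sham 2 and SNL 2, and its SNL 1 spot was left out as an outlier. Its change of 0.17 ± 0.18 thus rests on 1 SNL mouse. The dimmer second probe, with all 4 arrays, read 1.91, 1.78, 2.03 and 1.86, a change of 0.096 ± 0.12. The average of the 2 probes was at -0.052, but on SNL 1 it holds the dimmer probe alone. That sign is thus no disagreement between the probes. On the authors' deposited values Timp2 was at -0.025. Timp2 therefore has no settled direction here, whereas Timp1 and Timp4 stayed above 0 in every alternative run.

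**Figure D2:**
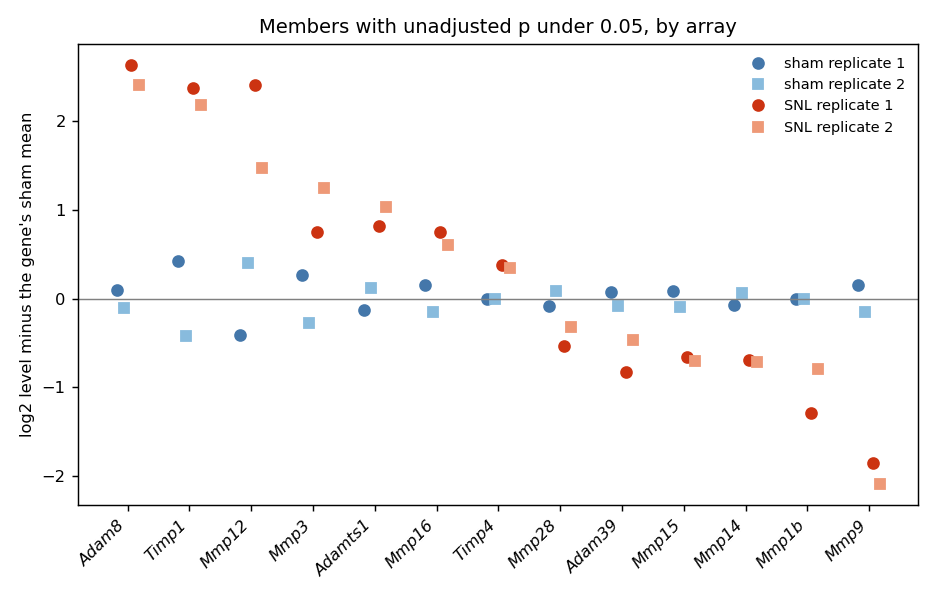
The level of each of the 13 members with an unadjusted p under 0.05, as the log2 difference from that gene's sham mean (vertical axis), with 1 point per array. Both SNL points lie beyond both sham points for all 13. The 2 sham points are farthest apart for Timp1 and Mmp12, and the 2 SNL points are farthest apart for Mmp12.

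Among ADAM sheddases with a catalytic site, Adam8 stood apart from the other 8 measured members. Adam8, a sheddase known from myeloid cells, had levels of -1.28, -1.49, 1.25 and 1.03. The 2 mice of a group differed by little, and the sham and SNL values were separated by more than 2 log2 units. SNL was 5.76-fold higher, a change of 2.53 ± 0.14 (limma adjusted p = 0.0527), which just missed the threshold. It passed with normexp background correction (adjusted p = 0.0342), with no filter on dim probes (0.0446), with probes detected on all 4 arrays (0.0406) and with robust estimation on a variance trend (0.0010), all in limma. Over all 14 alternatives its limma adjusted p ran from 0.0010 to 0.501, the highest without sham 2. It was at least 2-fold higher at an unadjusted p under 0.05 in 14 of 14 alternatives, and lay between 2.41 and 2.64 with each mouse left out. Its only probe lies at chr7:147164873-147164932 on the minus strand (mm9). With that single probe, the filters, probe average, variance model and block could alter the p of Adam8 but not its change.

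Adam10, the main Notch and amyloid precursor sheddase, read 1.72, 1.57, 1.97 and 1.77, a change of 0.22 ± 0.13 (limma adjusted p = 0.582). Adam17, the tumour necrosis factor convertase, read -0.05, 0.04, 0.07 and -0.16, a change of -0.041 ± 0.13 with overlapping groups. Its sign turned when normexp correction was used, at 0.052. Adam19, a sheddase of neuregulins, was at -0.26 ± 0.13 without overlap. The class median was 0.063, with 5 of 9 above 0. By the probe that represents each gene, Adam8 was thus the only one of the 9 with an unadjusted p under 0.05. Adam12 was at -0.15 ± 0.24 by that probe. A dimmer Adam12 probe, well above background on 3 arrays, was at -1.11 ± 0.38 (limma adjusted p = 0.406).

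The neuronal ADAMs without catalytic activity, Adam11, Adam22 and Adam23, are receptors for the secreted Lgi proteins at synapses. None of these 3 had an unadjusted p under 0.05. On its brightest probe Adam22 read 0.13, 0.62, 0.26 and 0.56, a change of 0.035 ± 0.23. On that probe the mice of a group differed by far more than the groups. A second Adam22 probe read -0.42, -0.44, -0.20 and -0.24 without overlap, at 0.21 ± 0.095 (limma adjusted p = 0.495). Another was at 0.050 ± 0.17. Adam23 was at -0.077 ± 0.13 and Adam11 at -0.13 ± 0.089. Their Lgi ligands were also near 0, at 0.13 for Lgi1, -0.056 for Lgi2, 0.057 for Lgi3 and -0.033 for Lgi4. Adam23 turned to 0.10 with the mean of its 4 probes.

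Of the gelatinases, which cut denatured collagen and basement membrane, Mmp9 was lower in SNL and Mmp2 was not separated. Mmp9 had levels of -0.74, -1.04, -2.75 and -2.98. Both SNL mice lay below both sham mice, with about 0.3 log2 units or less between mice of a group. SNL was 3.92-fold lower, a change of -1.97 ± 0.17 (limma adjusted p = 0.0908). The change lay between -2.12 and -1.82 with each mouse left out, and it was at least 2-fold lower at an unadjusted p under 0.05 in 14 of 14 alternatives. It passed the adjusted threshold with no filter on dim probes (limma adjusted p = 0.0446) and with robust estimation on a variance trend (0.0073). Its limma adjusted p ran from 0.0073 to 0.510 over the alternatives, the highest again without sham 2. The only Mmp9 probe lies at chr2:164780620-164780679 on the plus strand (mm9), and the promoter table used here holds no window for it. As for Adam8, the filters, probe average, variance model and block could alter the p of Mmp9 but not its change.

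Mmp9 transcripts in the mouse cord are known from fast motor neurons, and Mmp9 protein also from neutrophils. Of 14 motor neuron genes, 12 lay below 0 with a median change of -0.42, 8 were lower in SNL at an unadjusted p under 0.05, and Chodl and Mnx1 fell at an adjusted p under 0.05. Chodl, another fast motor neuron gene, read 1.18, 0.97, -2.73 and -2.79, a change of -3.84 ± 0.12 (limma adjusted p = 0.0374). Mnx1 read -2.80, -3.16, -7.05 and -7.26 and was not well above background in SNL. It thus entered through the sham mice alone, the group where it is high, and the size of its fall is not a measured one. The deviation from each gene's own 4-array mean had a list median of 0.28 and 0.23 in the sham mice and -0.15 and -0.24 in the SNL mice. Slc18a3, the vesicular acetylcholine transporter, was at -0.36, and Isl1 and Prph were near 0 at -0.022 and 0.078. Mmp9 thus had the same order of arrays as Chodl. In whole tissue, fewer cells of a type and less RNA per cell cannot be told apart, and the part of motor neurons in the Mmp9 value was not tested. Of the 12 neutrophil genes, 9 also lay below 0, with a median change of -0.55, and 0 were lower and 1 higher at an unadjusted p under 0.05. The part of neutrophils in the Mmp9 value was not tested either.

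Mmp2 read -0.92, -1.72, -1.00 and -1.50, high in 1 mouse of each group and low in the other. Its change was 0.071 ± 0.36, and its sign turned without sham 2, at -0.33, and without SNL 1, at -0.18. Genes of meninges and fibroblasts, which make much of the Mmp2 of the cord's coverings, had the same order: their median deviation was 0.49, -0.65, 0.30 and -0.21. Col3a1, the fibrillar collagen III chain, read 1.95, 0.62, 1.74 and 0.79. Col3a1 thus varied between mice as Mmp2 did and was at -0.021 between the groups.

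**Figure D3:**
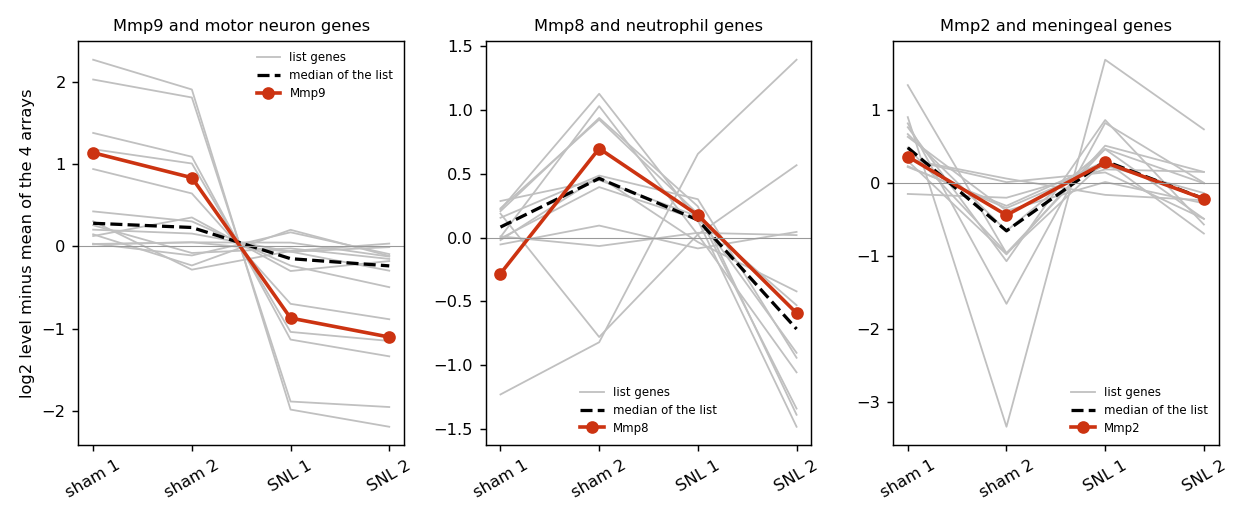
Each line gives a gene's log2 level on the 4 arrays minus its mean over them (vertical axis): red for the member, grey for the genes of the marker list, dashed black for the list's median. Mmp9 is lower in both SNL mice, as are Chodl and Mnx1, of which Mnx1 was not well above background in SNL. Mmp8 is highest on sham 2 and lowest on SNL 2, and Mmp2 is lowest on sham 2.

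Collagenases, which cut intact fibrillar collagen, were measured for 3 of 4 members. Mmp8 and Mmp13 overlapped between the groups, and each turned above 0 with a mouse left out. Mmp1b read -6.44, -6.44, -7.73 and -7.24 and was well above background in both sham mice and in neither SNL mouse. It was at least 1.42-fold lower in SNL. The fitted change of -1.04 ± 0.20 (limma adjusted p = 0.235) is therefore no measured fold, and it was only -0.45 with normexp correction, so the bound holds for the processed signals alone. Mmp8, the neutrophil collagenase, read -1.41, -0.43, -0.96 and -1.72, so the sham mice differed by 0.98 and the groups overlapped. The median deviation of the 12 neutrophil genes was likewise highest on sham 2 and lowest on SNL 2, at 0.08, 0.46, 0.14 and -0.72. Ngp had that order, with -1.22, -0.19, -1.20 and -2.27. The list was mixed: Ly6g, Csf3r and Stfa2l1 lay above 0 between the groups. The largest change of the list was 2.05, and 1 gene was higher and 0 lower at an unadjusted p under 0.05. Mmp13 read -4.98, -6.38, -5.49 and -6.68, with a spread within each group larger than its change of -0.41 ± 0.69.

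The stromelysins, matrilysin and macrophage elastase were measured for 3 of 5 members, all above 0. Mmp12, the elastase of macrophages, read -7.72, -6.92, -4.91 and -5.85. Both SNL mice lay above both sham mice, and of the sham mice only sham 2 was well above background. The change was 1.95 ± 0.47, or 3.85-fold (limma adjusted p = 0.294). It was smaller with normexp correction, at 1.39, and missed an unadjusted p under 0.05 without sham 1, at 1.54. Mmp3, stromelysin-1, read -7.20, -7.75, -6.72 and -6.23, and only sham 1 and SNL 2 were well above background. Its change of 1.00 ± 0.29 (limma adjusted p = 0.346) lay at the 2-fold limit, was 0.35 with normexp correction, and met the limit in 6 of 13 alternatives. Mmp11, stromelysin-3, was at 0.23 ± 0.12, and its second probe was at -0.011.

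The lowest level that was well above background was -7.86 and -8.01 on the sham arrays and -6.89 and -7.01 on the SNL arrays. Values of Mmp12, Mmp3 and Mmp1b thus lie close to the limit of detection, which was about 1 log2 unit higher on the SNL arrays, as large as the change of Mmp3. The 13 probes of the 11 unmeasured genes had medians of -9.37 and -10.04 on the sham arrays and -9.03 and -9.11 on the SNL arrays. That difference between the medians is one in the floor and not in a measured transcript. Mmp10 moved more than these medians, at -10.01, -10.12, -8.06 and -7.29. It was well above background on 0 arrays, so no change is given for it.

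Mmp12, Mmp1b and Mmp3 lie next to each other in a cluster of 10 members on chromosome 9, whose probes run from 7282762 to 7697700 in mm9. In the order of the probes these are Mmp13, Mmp12, Mmp1b, Mmp3, Mmp1a, Mmp10, Mmp8, Mmp27, Mmp20 and Mmp7, and 6 of the 10 were measured. The fitted changes of Mmp12 and Mmp3 were above 0 and that of Mmp1b below 0, each with some arrays below the detection limit. Mmp27 read -3.67, -3.85, -4.22 and -3.40, with overlapping groups and a change of -0.045 ± 0.32. No pattern along the cluster is read from these values.

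**Figure D4:**
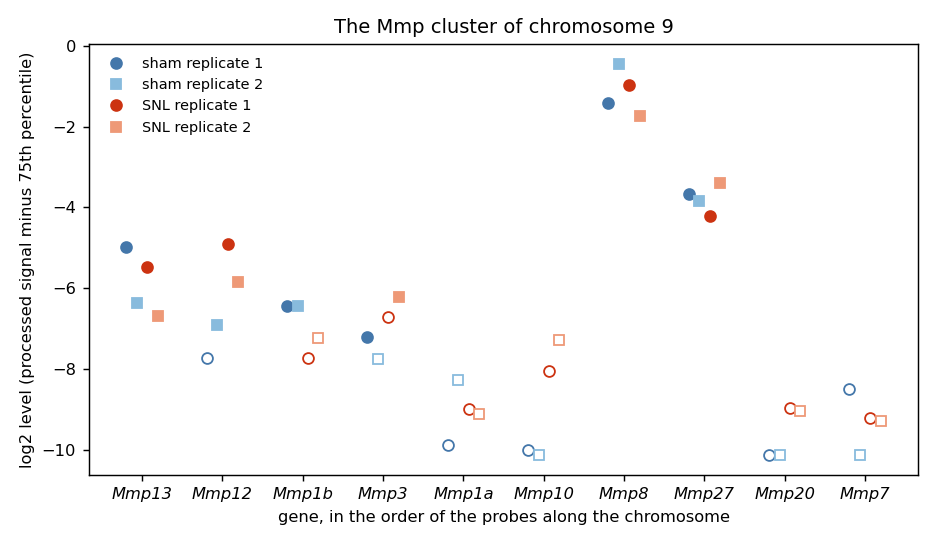
Log2 levels (vertical axis) of the 10 members of the chromosome 9 cluster in the order of their probes, with 1 point per array. Open points were not well above background on that array. Mmp8, Mmp13 and Mmp27 were measured on all arrays, Mmp12, Mmp1b and Mmp3 on some, and Mmp1a, Mmp10, Mmp20 and Mmp7 on too few. Levels of different genes are not comparable.

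The membrane-type MMPs, which act at the cell surface, were all 6 measured and none of the 6 overlapped between groups, as was so for 45.8% of all genes. Mmp14, which activates pro-Mmp2, read -2.27, -2.13, -2.89 and -2.91. The 2 SNL mice were almost equal and lay below both sham mice, a change of -0.70 ± 0.10 (1.63-fold lower, limma adjusted p = 0.168). Mmp15 read -0.42, -0.60, -1.16 and -1.21, a change of -0.68 ± 0.11 (1.60-fold lower, limma adjusted p = 0.190). Mmp16 went the other way, with -2.18, -2.49, -1.58 and -1.72 and a change of 0.68 ± 0.15 (1.61-fold higher, limma adjusted p = 0.269). The lipid-anchored Mmp17 and Mmp25 were at -0.35 ± 0.15 and -0.48 ± 0.25. Mmp24, made by neurons, was at 0.13 ± 0.11, and its second probe was at -0.37. The class thus split, with 4 members below 0 and 2 above, and Mmp24 turned below 0 with normexp correction and when its probes were averaged.

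Mmp14, Mmp15 and Mmp16 kept their sign in every alternative run. Vessel genes lay in the same direction as Mmp14 and Mmp15: 11 of 12 endothelial and mural genes were below 0, with a median change of -0.28 and 2 of 12 lower at an unadjusted p under 0.05. Other lists lay in that direction too. Of the motor neuron genes, 12 of 14 were below 0, with a median of -0.42 and 8 lower at that p. Of the neutrophil genes, 9 of 12 were below 0, with a median of -0.55 and 0 lower and 1 higher at that p. The part of any of these lists in the values of Mmp14 and Mmp15 was not tested. Of the other MMPs, Mmp28, epilysin, read -3.30, -3.14, -3.76 and -3.54, a change of -0.42 ± 0.13 (limma adjusted p = 0.380). Mmp19 and Mmp23 differed more between mice of a group than between groups, at 0.028 ± 0.41 and 0.17 ± 0.47.

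The ADAMTS enzymes that cut aggrecan and related proteoglycans were led by Adamts1, an early gene of injured tissue. Adamts1 read -0.04, 0.21, 0.91 and 1.11. Both SNL mice lay above both sham mice, a change of 0.93 ± 0.15 (1.90-fold higher, limma adjusted p = 0.186). It passed the adjusted threshold with robust estimation on a variance trend (limma adjusted p = 0.0232), and its adjusted p reached 0.609 without sham 2. Adamts4 and Adamts5, the main aggrecanases, were at -0.090 ± 0.15 and -0.13 ± 0.18 with overlapping groups, and the 2 probes of each differed in sign. Adamts9 read -0.50, -0.41, -0.39 and 0.30, so its change of 0.41 ± 0.27 came mostly from SNL 2. The median of the 7 genes was 0.20, with 4 above 0.

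The procollagen N-propeptidases trim fibrillar collagens before they assemble. Adamts2 read -0.55, -1.13, -1.13 and -1.58, a change of -0.52 ± 0.29, and Adamts3 was at 0.31 ± 0.17 and Adamts14 at 0.13 ± 0.14. None of these 3 had an unadjusted p under 0.05. The 9 other ADAMTS genes had a median of -0.071, and 0 of 9 reached an unadjusted p under 0.05. The most uneven of these was Adamts17, where sham 1 at -4.94 stood far below the other arrays at -3.09, -3.19 and -3.26. Its 2 probes also differed in sign, at 0.78 and -0.49.

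The ADAM genes known mainly from testis, epididymis or lymphoid tissue were measured for 14 of 20 members. Adam39 read -5.65, -5.81, -6.55 and -6.19, a change of -0.64 ± 0.17 (limma adjusted p = 0.320), and it was the only one of these with an unadjusted p under 0.05. Adam26b was at -0.32 ± 0.14. Adam25 read -5.97, -7.65, -8.21 and -8.14 and was well above background in the sham mice only. Its sham 2 level lay below the lowest level well above background on either SNL array, so no fold is given. Several of these differed more between mice of a group than between the groups. Adam2 read -3.20, -4.37, -3.50 and -2.77, and Adam3 read -2.23, -3.28, -2.73 and -1.65.

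Genes that work with the members were described as whole lists, and 0 genes of these 6 lists passed limma's adjusted threshold. The plasminogen system activates pro-MMPs on the cell surface, and all 10 of its 12 genes that were measured lay above 0, with a median of 0.49 and 5 higher and 0 lower at an unadjusted p under 0.05. Over all genes the median was 0.028, with 6.64% higher and 5.44% lower at that p. After quantile normalization 9 of the 10 lay above 0. S100a10 and Anxa2, which together hold plasminogen on the cell surface, were at 0.65 ± 0.11 and 0.56 ± 0.12. Plaur, the urokinase receptor, was at 0.93 ± 0.27.

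Of 23 other inhibitors and regulators of metalloproteases, 4 were higher and 3 lower at an unadjusted p under 0.05, with a median of 0.017. Sdc1, a shed surface proteoglycan, read -3.96, -4.36, -2.11 and -2.50, a change of 1.86 ± 0.22 (3.62-fold higher, limma adjusted p = 0.142). Rhbdf2, which carries Adam17 to the surface, read -2.71, -3.42, -1.92 and -1.96, a change of 1.12 ± 0.28, while Adam17 itself was near 0. Cst3, cystatin C, was at 0.47 ± 0.10 and Adamtsl3, an ADAMTS-like protein without a protease domain, at -0.58 ± 0.13. Of 17 measured convertases and other matrix proteases, 2 were higher and 2 lower, with a median of -0.027. Mep1a, the meprin alpha subunit, was at 1.51 ± 0.11 (limma adjusted p = 0.0802), Htra3 at 0.64 ± 0.10, Tll2 at -0.85 ± 0.16 and Prss12 at -0.59 ± 0.13.

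Of 17 measured genes of the perineuronal net and its proteoglycans, the substrates of ADAMTS enzymes, 0 were higher and 2 lower at an unadjusted p under 0.05, with a median of -0.17. These 2 were Tnr, tenascin-R, at -0.47 ± 0.13 and Ncan, neurocan, at -0.40 ± 0.14. Of 20 basement membrane and fibrillar genes, Sparc, a collagen-binding protein, was the only one at an unadjusted p under 0.05, at 0.34 ± 0.10, and the list median was 0.033. Of 31 measured ADAM substrates and partners, 6 were higher and 4 lower, with a median of -0.023. Areg, the amphiregulin precursor shed by Adam17, read -7.35, -7.44, -3.74 and -4.47, a change of 3.29 ± 0.29 (9.79-fold higher, limma adjusted p = 0.0920). Its sham levels lay close to the lowest well above background on those arrays, -7.86 and -8.01, so the size of this fold is less certain. Tnfrsf1b, a shed receptor of tumour necrosis factor, was at 1.35 ± 0.12 (limma adjusted p = 0.0920). Jag1, a Notch ligand, was at -0.58 ± 0.094 and Tgfa, transforming growth factor alpha, at -0.49 ± 0.090.

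Microglial genes lay above 0 beside Adam8, Timp1 and Mmp12. Of the 13 microglia and macrophage genes, all 13 lay above 0 and 11 had an unadjusted p under 0.05, with a median change of 0.72, while 0 passed limma's adjusted threshold. C1qc, a complement chain made by microglia, read -0.22, -0.34, 1.41 and 1.25, a change of 1.61 ± 0.11 (limma adjusted p = 0.0743), the highest of the list. The median deviation of the list was -0.33 on both sham arrays and 0.42 and 0.29 on the SNL arrays. Adam8 and Timp1 had larger changes than any of these 13 genes, and the difference was not tested. All 13 were well above background on all 4 arrays. Genes of other cells and tissues lay in the same direction. Of 10 T and NK cell genes, 9 lay above 0, with a median change of 0.79 and 4 higher at an unadjusted p under 0.05. Of 11 Schwann cell and dorsal root genes, 10 lay above 0, with a median of 0.84 and 2 higher at that p. Of 10 skeletal muscle and bone genes, 9 lay above 0, with a median of 0.89 and 0 higher at that p, and the list was high on SNL 1 only. The part of any of these 4 lists in the values of Adam8, Timp1 and Mmp12 was not tested.

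Among the members past 2-fold, the dim ones moved most, with normexp correction. That correction was run with an offset of 50 added to every signal, which by itself makes the changes of dim probes smaller. The plot of changes by processing shows the 6 members past 2-fold by fitted change under each alternative. Adam8, Timp1 and Mmp9 kept their size, and Mmp12, Mmp3 and Mmp1b were smaller with normexp correction. Adam8, Timp1 and Mmp9 have 1 probe each, well above background on all arrays. Their changes were therefore fixed under the filters, the probe average, the variance model and the block. Only the other background correction, the scalings, the authors' values and leaving a mouse out could move them.

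**Figure D5:**
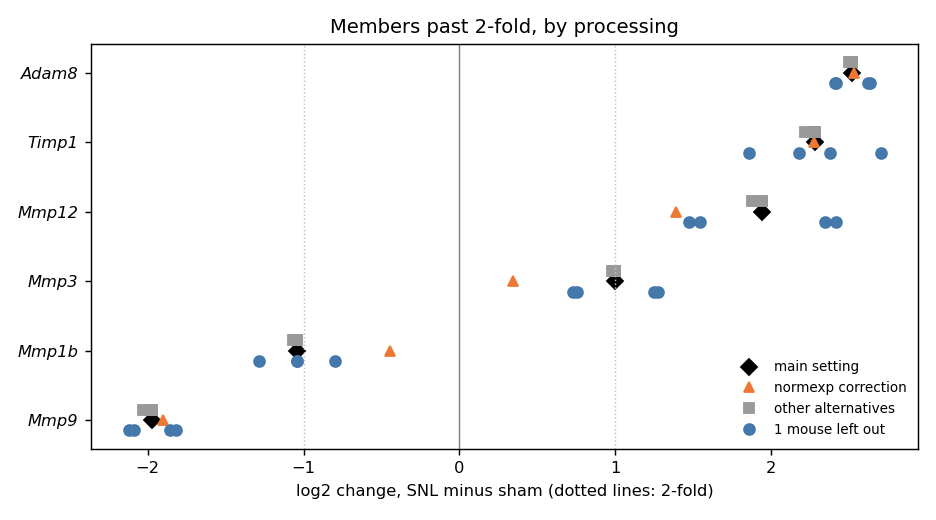
The log2 change (SNL minus sham, horizontal axis) of the 6 members at least 2-fold different by fitted change at an unadjusted p under 0.05, under each processing alternative. Diamonds are the values reported, triangles normexp background correction, squares the other alternatives and circles the values with 1 mouse left out. Adam8, Timp1 and Mmp9 stay beyond the dotted 2-fold lines in all of them, and Mmp3 and Mmp1b do not. For Adam8, Timp1 and Mmp9 the filters, probe average, variance model and block could not move the change.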

How the data were processed

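Total RNA of each mouse was labelled with Cy3 and hybridised to a 1-colour Agilent array of design 028005, per the labels' protocols and the file headers. The scanner files that the authors deposited give a linear intensity for each spot, read by Agilent Feature Extraction. The file headers name version 10.7.3.1, whereas 10.7.1.1 is the version per the submitters' processing notes. A table of log2 values that the authors deposited was used as an alternative. Its columns correlated with the scanner values at an r that rounds to 1, so it is on the same log2 scale and direction and not centred per gene. It lies 0.122 to 0.132 above the values used here, with column medians of -3.46, -3.53, -3.49 and -3.34, and the spots over which it was scaled are unknown.

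Levels were log2 of the processed signal, from which the 75th percentile of the array's 59305 non-control spots was taken off. Outlier spots were dropped, and replicate spots of a probe were averaged. Probes entered if well above background on at least 2 arrays, and a gene was represented by its brightest probe. Of 55681 probes, 26863 took a current symbol by accession, 3752 by symbol and 623 by synonym from a RefSeq table, and 24443 kept the file's name. SNL was set against sham in limma 3.58.1 (R 4.3.3, lmFit and eBayes, no covariate) over 29409 genes with Benjamini-Hochberg adjustment, after tests on simulated data. The fit had 2 residual and 1.65 prior degrees of freedom, and the median SE was 0.13. The number of arrays limits the precision. With 2 mice a group, the smallest p of an exact two-sided permutation test is 0.333, so that test was not used.

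Bounds ("at least") set the bright group's mean over, per array, the higher of the lowest signal well above background and the dim probe's own. Named members are all Timp genes, those past 2-fold, the 12 largest changes each way without overlap and a fixed set of long-studied genes, plus up to 4 genes per list by smallest p. Other members and all marker genes were named after their values were seen. The values of 1 gene named by this rule are not reported here. Members and lists were chosen with earlier results of these data known, so no list was tested. Of the promoter motifs searched, that of NF-kB was left out after its matches had been seen, because its letters could not be printed here; it was not left out for its result. The replicate numbers are not known to pair the mice. Deviations of same-numbered mice correlated at -0.03 over genes, which with 2 mice a group cannot show whether the mice were paired. Alternatives were other background corrections, scalings, filters, probe rules and variance models, the authors' values, each mouse left out and the replicate number as a block. With 1 slide and 1 scan no slide block was possible.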

Additional observations from a re-analysis of the deposited data

How the results depend on the processing

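Of the 32 named members, 24 kept their direction in all alternatives run. Those that turned were near 0: with normexp correction Adam17 was at 0.052, Adam23 at 0.075, Adamts5 at 0.082, Mmp2 at -0.062, Mmp24 at -0.10 and Timp2 at -0.010. With the mean of a gene's probes Adam23 was at 0.10, Adamts4 at 0.093, Mmp24 at -0.12 and Timp2 at -0.052, and with the authors' values Timp2 was at -0.025. With a mouse left out, Adam17 ranged from -0.16 to 0.077, Adam22 from -0.21 to 0.28, Adam23 from -0.20 to 0.049, Adamts4 from -0.25 to 0.067, Adamts5 from -0.34 to 0.084 and Mmp2 from -0.33 to 0.47. Members past the adjusted threshold as higher numbered 1 with normexp correction (Adam8), 2 with no filter (Adam8 and Mmp20, the latter at the detection floor), 1 with probes detected on all 4 arrays (Adam8) and 3 with robust estimation on a variance trend (Adam8, Adamts1 and Timp1). As lower, 1 passed with no filter and 1 with the variance trend, Mmp9 in both. The 4 members at least 2-fold higher became 2 with probes detected on all 4 arrays and 6 with no filter, where the unmeasured Mmp10 and Mmp20 entered. Over all genes these counts were 557 of 29409 in the main setting, 497 of 26853 and 1208 of 34782. The 2 at least 2-fold lower by fitted change became 1 with normexp correction and 1 with probes detected on all 4 arrays, Mmp9 in both. Over all genes 206 of 29409 became 95 of 29409 and 95 of 26853. With a mouse left out the fitted change of Mmp1b ranged from -1.29 to -0.80. At an unadjusted p under 0.05, the 7 higher members became 11 with no filter, where 4284 of 34782 genes were higher, against 1954 of 29409 in the main setting. The 6 lower members became 7 with no filter, where 1693 genes were lower, against 1600. The members' median of 0.028 was -0.074 after quantile normalization, where the median of all genes was -0.025, and 0.021 to 0.12 with a mouse left out, the highest without SNL 1. The replicate number, not known to pair the mice, was also used as a block. In that fit 0 members passed the adjusted threshold, 3 were at least 2-fold higher and 2 lower, beside 585 and 219 of all 29409 genes. Over all genes, 47 higher and 3 lower calls became 11 and 0 with quantile normalization, 27 and 3 with scaling over detected probes, 118 and 14 with normexp correction, 1139 and 88 with no filter, 414 and 116 with the variance trend, and 0 and 0 with the block or any mouse left out. With a mouse left out, the lone mouse of a group is assumed to vary like the other group. Probes of 9 of the 21 members with over 1 passing probe differed in sign.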
